A study of Mus musculus with 8 samples.

Results

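Fc gamma receptors bind the constant part of immunoglobulin G, and mice carry 4 of them, encoded by Fcgr1, Fcgr2b, Fcgr3 and Fcgr4. These genes were chosen by name together with Fcer1g, which encodes the signalling chain of the activating receptors, giving 5 members among the 20340 genes of the deposited tables. All 5 were measured in every library. The data were 8 single-cell RNA libraries of live cells from brain hemispheres of male C57BL/6J mice aged 8 to 9 weeks. The mice were labelled wild-type (WT) or Prdx1-/-, the latter standing for loss of the antioxidant enzyme peroxiredoxin 1. Every mouse underwent transient middle cerebral artery occlusion (tMCAO), in which a suture blocked the artery for 60 min under isoflurane and was then withdrawn to let blood return. One library was made for each combination of labelled genotype, hemisphere (ipsilateral, the occluded side, or contralateral) and time (24 or 48 h), and no library from unoperated mice was analysed here. The labels do not give the number of mice behind a library, so the p-values below measure the spread between libraries, which may be technical.

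Immunoglobulin G bound to a target is read by these receptors as a signal to engulf, to release mediators or to hold back. Fcgr1 (CD64) binds monomeric immunoglobulin G with high affinity, Fcgr3 (CD16) binds immune complexes with low affinity, and Fcgr4 binds particular subclasses with intermediate affinity. All of these signal through the paired activation motif of the Fcer1g chain and the kinase Syk, whereas Fcgr2b carries an inhibitory motif of its own that recruits the phosphatase SHIP-1. Microglia, the resident macrophages of the brain, are known to carry Fc gamma receptors, as are the monocytes and neutrophils that enter after a stroke.

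In the GENCODE annotation of GRCm38, 4 of the genes lie within 275.7 kb of chromosome 1 and Fcgr1 lies apart on chromosome 3. Fcgr2b spans chr1:170958617-170976547, Fcgr4 chr1:171018920-171029761, Fcgr3 chr1:171051174-171064935, Fcer1g chr1:171229572-171234365 and Fcgr1 chr3:96282909-96293969, and only Fcgr4 is on the plus strand. The annotated transcripts of Fcgr2b and Fcgr3 share 166 stretches of 50 bases, of which 33 touch the last 500 bases of a transcript, and no other pair among the 5 shares any. Reads from those stretches cannot be assigned to either gene by sequence, so the values of Fcgr2b and Fcgr3 are less certain than the others. The annotation also places the antisense gene Gm38204 within Fcgr2b.

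Fcgr1 and Fcgr4 had their highest means in the clusters led by interferon-induced genes described below, for Fcgr4 with libraries overlapping those of other clusters. The sequences before these genes are shown because of these means. Both are taken from RefSeq for GRCm38.p6 and run 5′ to 3′ on the strand of the gene, over the 250 bases before its start, at chr3:96293970-96294219 (minus strand) for Fcgr1 and chr1:171018676-171018925 (plus strand) for Fcgr4. Capitals mark a match to TTCNNNGAA, the core of the interferon gamma activation site, in Fcgr1, and in Fcgr4 a match to GAAA followed after any 2 bases by a further GAAA, a core of the site bound by interferon regulatory factors.
Fcgr1: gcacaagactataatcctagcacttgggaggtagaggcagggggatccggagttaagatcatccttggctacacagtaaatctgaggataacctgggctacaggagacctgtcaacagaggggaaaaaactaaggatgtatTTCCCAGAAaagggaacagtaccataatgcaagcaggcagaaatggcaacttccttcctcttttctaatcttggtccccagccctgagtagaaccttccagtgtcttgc
Fcgr4: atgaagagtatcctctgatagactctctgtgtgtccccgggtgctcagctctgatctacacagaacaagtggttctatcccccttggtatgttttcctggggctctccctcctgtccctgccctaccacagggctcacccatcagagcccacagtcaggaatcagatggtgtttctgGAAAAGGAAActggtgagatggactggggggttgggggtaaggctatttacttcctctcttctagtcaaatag
The search covered both strands from 250 bases before to 50 bases after the start. The Fcgr1 match begins 109 bases before the start and reads TTCCCAGAA, and 8.3% of 32851 such RefSeq windows hold a match to TTCNNNGAA. The Fcgr4 match begins 73 bases before the start and reads GAAAAGGAAA, and 3.44% of windows hold a match to that core. The core bound by the myeloid factor PU.1, GAGGAA, occurs in the windows of Fcgr1, Fcgr3 and Fcgr4 and in 28.28% of all windows. The windows of Fcgr2b and Fcer1g hold none of these letters. A match is a description of letters, and no binding was measured.

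The libraries held 4189 to 5759 cells and 39433266 to 70111421 unique molecular identifiers (UMIs, each counting 1 captured RNA molecule once), and 38025 of 39945 cells were used. Of 39742 distinct cell barcodes, 203 occurred in 2 or more libraries. Cells fell into 30 clusters computed without the Fc receptor genes and without Prdx1, and clusters were named from marker genes, so each class carries the ending "-like". Prdx1 went against the label in part of the libraries: microglia-like cells of the library labelled Prdx1-/- ipsilateral 24 h held 635 CPM of Prdx1 (CPM, counts scaled to 1000000 UMIs), against 589 CPM in WT ipsilateral 24 h, and the library labelled Prdx1-/- contralateral 24 h held 90.1 CPM against 263 CPM. At 48 h the libraries labelled Prdx1-/- held 6.13 and 7.55 CPM against 339 and 733 CPM in WT. The labels do not say which part of the gene is deleted. The source of the Prdx1 counts in the 24 h libraries labelled Prdx1-/- was not tested. Every genotype direction below is therefore between libraries as labelled.

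Each class of myeloid cells had a receptor profile of its own. The levels below are CPM of the counts summed over a class in a library (mean ± SD over libraries), and since UMIs count molecules near transcript ends they are not divided by gene length. Fcgr3 was the most abundant of the 4 receptors in each of the 4 myeloid classes, at 1101 ± 261 CPM in microglia-like cells (n = 8), 945 ± 82.0 CPM in border macrophage-like cells (n = 6), 637 ± 131 CPM in monocyte/macrophage-like cells (n = 8) and 498 ± 94.1 CPM in neutrophil-like cells (n = 8). Only in 1 sum, the monocyte/macrophage-like cells of the WT contralateral 48 h library, was Fcgr1 above it (513 against 487 CPM). T-like cells, which should hold few of these receptors and are taken here as the background, were at 82.8 ± 35.0 CPM (n = 8). Free RNA was not measured, so part of their counts may be their own. In every library with both classes Fcgr3 was higher in microglia-like than in monocyte/macrophage-like cells, by 0.78 ± 0.34 on the log2(CPM + 1) scale (SD, 8 of 8 libraries, two-sided exact permutation p = 0.00781, adjusted p = 0.0170 over the 50 pairs of class and gene compared). Against border macrophage-like cells it was higher by 0.28 ± 0.24 in 6 of 6 libraries (exact permutation, adjusted p = 0.0401). Monocyte/macrophage-like cells exceeded neutrophil-like cells by 0.35 ± 0.32 in 7 of 8 libraries (exact permutation, adjusted p = 0.0401). The order for Fcgr3 was thus microglia-like, border macrophage-like, monocyte/macrophage-like, neutrophil-like, with each neighbour differing in this test. With 8 libraries the smallest possible p is 0.00781, and with 6 it is 0.0313.

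**Figure D1:**
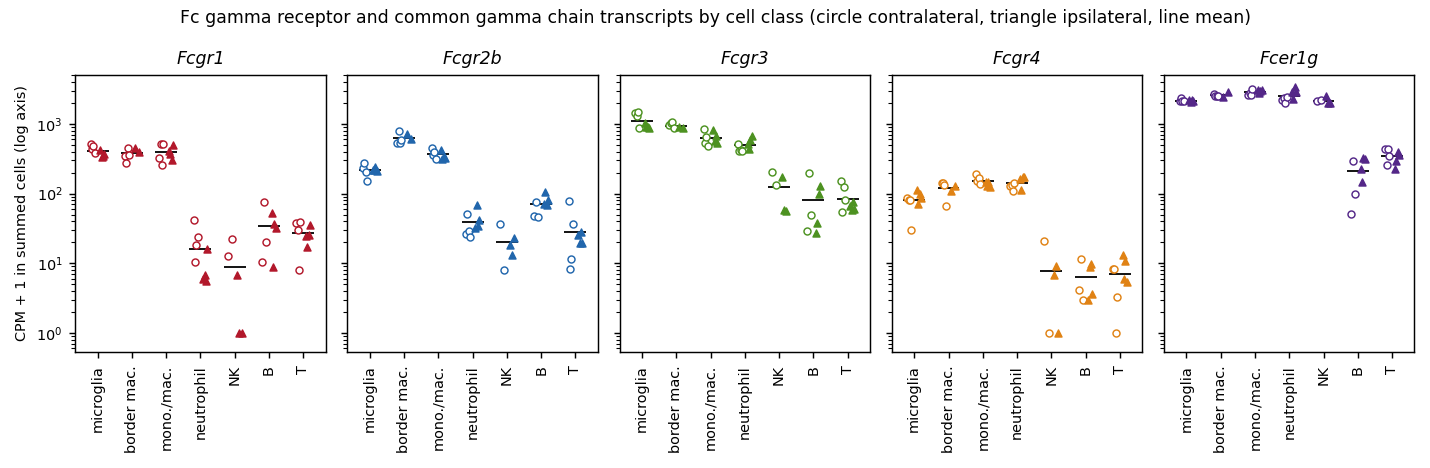
Level of each of the 5 genes (CPM + 1, log axis) in 7 classes of cells, with each point 1 library (circles contralateral, triangles ipsilateral) and lines at the mean. Fcgr3 and Fcer1g are high in all 4 myeloid classes, Fcer1g also in the NK-like class, Fcgr1 is high in the 3 macrophage classes and low in the neutrophil-like and NK-like classes, and Fcgr2b is highest in the border macrophage-like class.

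Fcgr1 separated neutrophil-like cells from the macrophage classes. It stood at 412 ± 66.4 CPM in microglia-like, 399 ± 101 CPM in monocyte/macrophage-like and 377 ± 67.4 CPM in border macrophage-like cells, and at 15.03 ± 12.1 CPM in neutrophil-like cells against 26.2 ± 10.7 CPM in T-like cells. The 3 macrophage classes did not differ beyond their spread: the difference was 0.07 ± 0.50 log2 between microglia-like and monocyte/macrophage-like cells (exact permutation, adjusted p = 0.702) and 0.20 ± 0.35 log2 between microglia-like and border macrophage-like cells (exact permutation, adjusted p = 0.313). Microglia-like cells exceeded neutrophil-like cells by 5.01 ± 0.92 log2 in 8 of 8 libraries (exact permutation, adjusted p = 0.0170). The neutrophil-like level was below that of T-like cells in 6 of 8 libraries and did not differ from it past the threshold (−0.96 ± 1.14 log2, exact permutation, adjusted p = 0.0744), so Fcgr1 in neutrophil-like cells is read here as background.

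Fcgr2b, the inhibitory receptor, had another order. Border macrophage-like cells, the macrophages of the meninges and vessels, were highest at 625 ± 101 CPM, followed by monocyte/macrophage-like cells at 364 ± 52.8 CPM, microglia-like cells at 217 ± 34.9 CPM and neutrophil-like cells at 37.6 ± 15.1 CPM. Microglia-like cells were lower than monocyte/macrophage-like cells by 0.75 ± 0.27 log2 in 8 of 8 libraries (exact permutation, adjusted p = 0.0170). Monocyte/macrophage-like cells were in turn lower than border macrophage-like cells by 0.72 ± 0.33 log2 in 6 of 6 (exact permutation, adjusted p = 0.0401). Neutrophil-like cells and T-like cells (27.4 ± 21.9 CPM) differed by 0.67 ± 1.33 log2, with neutrophil-like cells higher in 6 of 8 libraries (exact permutation, adjusted p = 0.231). In B-like cells, where Fcgr2b is known as the only Fc gamma receptor, it stood at 69.7 ± 20.7 CPM (n = 7). The same sums held 80.5 ± 64.6 CPM of Fcgr3 and 32.8 ± 24.0 CPM of Fcgr1. T-like cells held 82.8 ± 35.0 CPM and 26.2 ± 10.7 CPM of these.

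Fcgr4 was lowest in microglia-like cells among the myeloid classes, at 79.7 ± 24.0 CPM, and stood at 148 ± 22.3 CPM in monocyte/macrophage-like, 141 ± 25.8 CPM in neutrophil-like and 119 ± 29.4 CPM in border macrophage-like cells. It was lower in microglia-like cells than in monocyte/macrophage-like cells by 0.95 ± 0.57 log2 and lower than in neutrophil-like cells by 0.87 ± 0.58 log2, in 8 of 8 libraries each (exact permutation, adjusted p = 0.0170 for both). Monocyte/macrophage-like and neutrophil-like cells did not differ past the threshold (0.08 ± 0.39 log2, exact permutation, adjusted p = 0.602), nor did neutrophil-like and border macrophage-like cells (0.27 ± 0.55 log2, exact permutation, adjusted p = 0.340). T-like cells held 6.05 ± 4.01 CPM of Fcgr4.

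Fcer1g, the shared signalling chain, varied least between the myeloid classes. It stood at 2167 ± 77.8 CPM in microglia-like, 2538 ± 454 CPM in neutrophil-like, 2608 ± 180 CPM in border macrophage-like and 2876 ± 218 CPM in monocyte/macrophage-like cells, against 343 ± 80.6 CPM in T-like cells. Microglia-like cells were lower than monocyte/macrophage-like cells by 0.41 ± 0.12 log2 in 8 of 8 libraries (exact permutation, adjusted p = 0.0170), and neutrophil-like and border macrophage-like cells did not differ past the threshold (−0.06 ± 0.25 log2, exact permutation, adjusted p = 0.598). NK-like cells held 2164 ± 208 CPM of Fcer1g (n = 5) with 125 ± 67.6 CPM of Fcgr3, the receptor natural killer cells are known for. Their Fcgr3 range of 56.0 to 206 CPM overlapped the 53.2 to 150 CPM of T-like cells, and these classes were not compared by a test. Of the 50 pairs of class and gene compared, 40 passed the threshold. When each cell was instead classed by its own marker score, 24 passed.

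**Figure D2:**
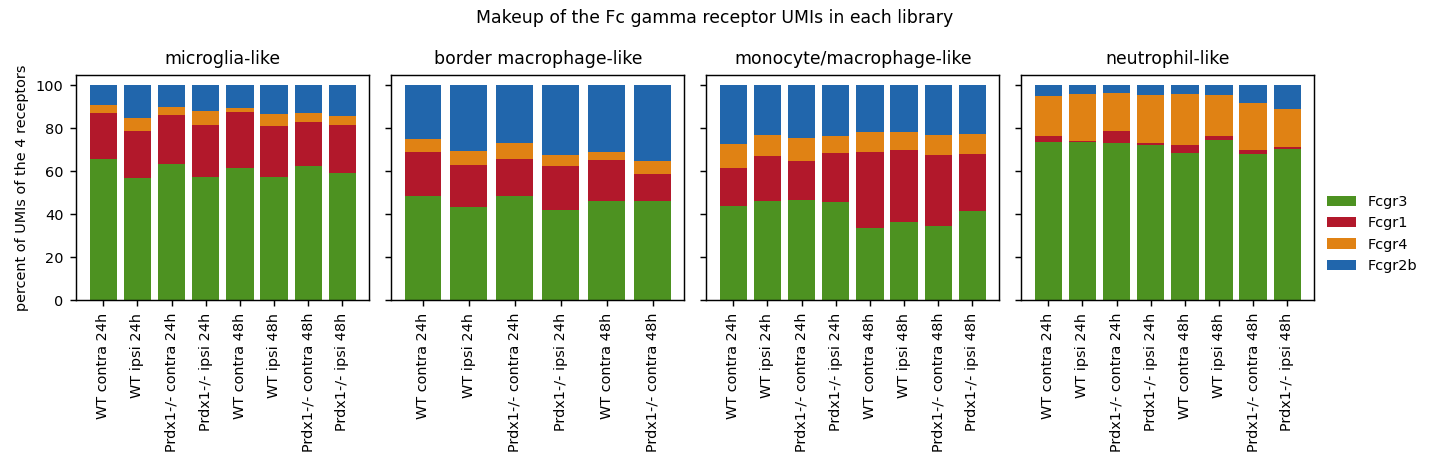
Share of Fcgr1, Fcgr2b, Fcgr3 and Fcgr4 (percent of the UMIs of these 4 genes) in each library, as stacked bars for 4 myeloid classes. Fcgr3 is the largest share in all but 1 bar, Fcgr1 nearly vanishes in neutrophil-like cells, and Fcgr2b takes its largest share in border macrophage-like cells.

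The shares of the 4 receptors' UMIs show the same profiles. In microglia-like cells Fcgr3 made up a median of 60.3% (56.8 to 65.6% over libraries), Fcgr1 22.4%, Fcgr2b 12.6% and Fcgr4 4.19%. In monocyte/macrophage-like cells Fcgr3 made up 42.6% (33.5 to 46.4%), Fcgr1 24.7% (17.8 to 35.3%), Fcgr2b 23.0% and Fcgr4 9.53%. In neutrophil-like cells Fcgr3 made up 72.6% (68.2 to 74.7%) and Fcgr4 20.3% (17.6 to 23.8%), whereas Fcgr1 made up 1.62% and Fcgr2b 4.42%. In border macrophage-like cells Fcgr2b made up 30.9% (24.8 to 35.1%). The log2 ratio of the summed activating receptors (Fcgr1, Fcgr3 and Fcgr4) to Fcgr2b had a median of 1.16 in border macrophage-like, 1.74 in monocyte/macrophage-like, 2.79 in microglia-like and 4.40 in neutrophil-like cells.

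Single cells carried activating and inhibitory receptors together in the macrophage classes. After each cell was thinned to 2000 UMIs, to remove differences in depth, a median over libraries of 80.5% of microglia-like cells held an Fcgr3 UMI (75.2 to 92.2%), 53.5% an Fcgr1 UMI, 32.6% an Fcgr2b UMI and 13.1% an Fcgr4 UMI. Fcgr2b occurred together with an activating receptor in 30.1% of microglia-like, 40.1% of monocyte/macrophage-like, 54.4% of border macrophage-like and 5.26% of neutrophil-like cells. In T-like cells, whose median depth before thinning was 5618 to 6571.5 UMIs against 7092 to 12176 UMIs in microglia-like cells, the share with both was 1.38% and the share with Fcgr3 was 6.06%. Fcgr1 occurred in 2.04% of neutrophil-like cells and in 1.87% of T-like cells, which is taken here as the background level. Unthinned, 96.6 to 99.4% of microglia-like cells held an Fcgr3 UMI. Too shallow to be thinned were 130 microglia-like, 9 monocyte/macrophage-like, 90 neutrophil-like, 4 border macrophage-like and 3 T-like cells.

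Within classes, Fcgr1 was highest in the clusters led by interferon-induced genes. Since the clusters were made from these cells' expression, the values are a description with no test. The microglia-like cluster led by Ifit3 and Ifit2 held 1117 CPM of Fcgr1 (950 to 1276 CPM in the 4 contralateral libraries, which alone held enough of its cells), while the means of the other microglia-like clusters ran from 245 to 509 CPM. Among monocyte/macrophage-like cells, the cluster led by Rsad2 and Ifit3 held 1148 CPM (1082 to 1226 CPM in the 4 libraries of 48 h), against 288 CPM in the cluster led by Vcan and Chil3 and 412 CPM in that led by Arg1 and Pf4. The lowest library of each interferon-led cluster lay above the highest library of every other cluster of its class. Fcgr1 itself is known to be induced by interferon gamma.

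Among monocyte/macrophage-like cells the mean of Fcgr4 was also highest in the cluster led by Rsad2 and Ifit3, at 255 CPM (202 to 301 CPM). It was 139 CPM (121 to 180 CPM) in the cluster led by Vcan and Chil3. In that led by Arg1 and Pf4 it was 137 CPM (92.1 to 250 CPM), where the libraries overlapped. In microglia-like cells the means of Fcgr4 ranged from 42.2 CPM in the cluster led by P2ry12 and Siglech, genes of homeostatic microglia, to 118 CPM in the interferon-led cluster. The latter (61.9 to 150 CPM) overlapped the cluster led by Spp1 and Snhg9, at 113 CPM (87.9 to 159 CPM). The cluster led by Rsad2 and Ifit3 was not the highest of its class in Fcgr3 or Fcgr2b: it held 440.1 CPM of Fcgr3, against 633 and 675 CPM in the others, and 314 CPM of Fcgr2b, against 310 and 448 CPM.

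Fcgr3 ran in another direction among microglia-like cells. Its mean was highest in the cluster led by P2ry12 and Siglech, at 1463 CPM (1178 to 1696 CPM in 5 libraries), and lowest in the cluster led by Mmp12, Spp1 and Lpl, at 618 CPM (503 to 695 CPM in 5 libraries). With at least 20 cells needed, the first came from the 4 contralateral libraries and WT ipsilateral 24 h, and the second from the 4 ipsilateral libraries and Prdx1-/- contralateral 48 h. In the 2 libraries with both, Fcgr3 stood at 1290 against 584 CPM (WT ipsilateral 24 h) and at 1532 against 503 CPM (Prdx1-/- contralateral 48 h). Other clusters overlapped the P2ry12 cluster, such as those led by Hspa1a, at 1348 CPM (1020 to 1538 CPM), and Bhlhe41, at 1322 CPM (807 to 1584 CPM). So did those led by Ifit3 and Ifit2, at 1233 CPM (750 to 1499 CPM), and by Spp1 and Snhg9, at 1238 CPM (995 to 1648 CPM). The dividing cells led by Top2a and Mki67 held 832 CPM (693 to 998 CPM), overlapping the Mmp12 cluster. The cluster led by Ccl12, Tnf and Il1a held 1001 CPM. Fcgr2b differed less between these clusters, with means of 188 to 237 CPM. Among neutrophil-like cells, the cluster led by the granule genes Ltf, Ngp and Camp, which mark immature neutrophils, held 282 CPM of Fcgr3 and 70.2 CPM of Fcgr4, while the other 3 clusters held 527 to 712 CPM and 168 to 183 CPM. The unnamed cluster led by Elane and Mpo, genes of granulocyte precursors, held 168 CPM of Fcgr3 and 12.2 CPM of Fcgr4 in 2 libraries. The unnamed cluster led by Cd209a and major histocompatibility complex class II genes held 281 CPM of Fcgr2b, 190.1 CPM of Fcgr3 and 100.3 CPM of Fcgr1.

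**Figure D3:**
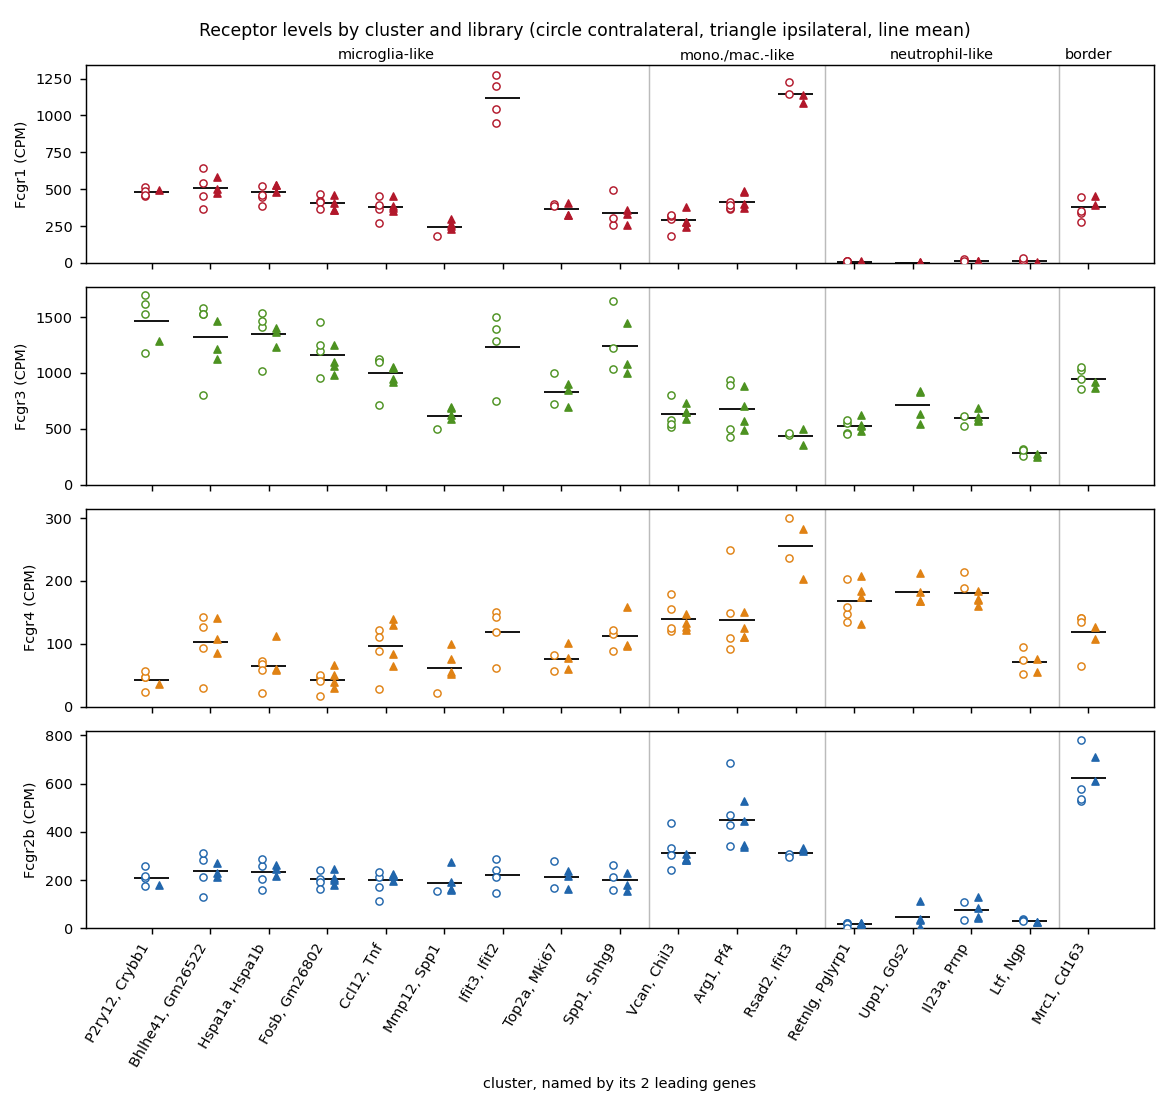
Level (CPM) of Fcgr1, Fcgr3, Fcgr4 and Fcgr2b in the clusters of the myeloid classes, each cluster named by leading genes, with each point 1 library (circles contralateral, triangles ipsilateral) and lines at the mean. Fcgr1 peaks in the Ifit3 and Rsad2 clusters. Among microglia-like cells the mean of Fcgr3 is highest in the P2ry12 cluster and lowest in the Mmp12 cluster, with libraries overlapping those of other clusters.

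Between hemispheres, Fcgr3 was lower in ipsilateral microglia-like cells. On the contralateral side Fcgr3 stood at 1471 CPM (WT, 24 h), 882 CPM (WT, 48 h), 1448 CPM (Prdx1-/-, 24 h) and 1295 CPM (Prdx1-/-, 48 h). On the ipsilateral side it stood at 894 CPM (WT, 24 h), 886 CPM (WT, 48 h), 1016 CPM (Prdx1-/-, 24 h) and 913 CPM (Prdx1-/-, 48 h). The ipsilateral value was lower in 3 of 4 pairs, and the groups overlapped only through the WT contralateral 48 h library. The fitted difference was −0.35 log2 (SE 0.11, adjusted p = 0.0269, edgeR's quasi-likelihood test over 13303 genes). It was the only member to pass between hemispheres in microglia-like cells, 1 of 5, where 46.6% of all genes tested passed in either direction. A count of 1 in 5 is below that background.

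The makeup of the microglia-like class also differed between hemispheres. The cluster led by P2ry12 and Siglech, where the mean of Fcgr3 was highest, made up 11.4 to 45.4% of contralateral and 0.373 to 4.67% of ipsilateral microglia-like cells. The cluster led by Mmp12, Spp1 and Lpl, where that mean was lowest, made up 0.243 to 0.908% and 12.1 to 35.1%. Within single clusters the difference was smaller, at −0.01 log2 in the cluster led by Ccl12, Tnf and Il1a (edgeR adjusted p = 0.984) and −0.07 log2 in that led by Fosb and Fos (edgeR adjusted p = 0.810). Without the Mmp12 cluster it was −0.17 log2 (edgeR adjusted p = 0.197). These fits were chosen after seeing the data, and those within 1 cluster called 341 and 425 of all genes, against 6204 in the whole class. Other cell types' markers also moved: in microglia-like cells 11 of 11 monocyte markers summed to 45.2 to 186 CPM contralaterally and 184 to 474 CPM ipsilaterally, and the 12 neutrophil markers to 27.5 to 241 CPM and 221 to 966 CPM, with none of either list at 0 in all libraries of a side. The part of the makeup and of these cells in the result was not tested.

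The Fcgr3 call was lost when any 1 of 6 of the 8 libraries was left out, while the difference stayed near −0.35 log2. It was −0.29 log2 without WT contralateral 24 h (edgeR adjusted p = 0.0642), −0.31 without WT ipsilateral 24 h (0.0714) and −0.34 without Prdx1-/- contralateral 24 h (0.0740). It was −0.36 log2 without Prdx1-/- ipsilateral 24 h (edgeR adjusted p = 0.0605), −0.33 without Prdx1-/- contralateral 48 h (0.0747) and −0.34 without Prdx1-/- ipsilateral 48 h (0.0712). The call held without WT ipsilateral 48 h (−0.47 log2, edgeR adjusted p = 0.0134). The difference was larger without the WT contralateral 48 h library (−0.49 log2, edgeR adjusted p = 0.00314), and at 24 h alone it was −0.52 log2 (edgeR adjusted p = 0.00845) against −0.22 log2 at 48 h alone (edgeR adjusted p = 0.202). The test of hemisphere by time itself did not pass for any member in any class, and for Fcgr3 in microglia-like cells it gave 0.35 log2 (SE 0.19, edgeR adjusted p = 0.476). Of all genes 0.0526% passed that test in microglia-like, 0.216% in monocyte/macrophage-like and 0.0% in neutrophil-like cells, and the members with an unadjusted p under 0.05 were 0, 0 and 2, the last being Fcgr4 and Fcer1g, where 1745 of 13303, 1415 of 10668 and 504 of 8537 genes were.

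Fcgr1 in microglia-like cells stood at 485, 377, 523 and 429 CPM contralaterally and at 345, 369, 427 and 339.9 CPM ipsilaterally, in the order WT 24 h, WT 48 h, Prdx1-/- 24 h and Prdx1-/- 48 h. It was lower on the ipsilateral side in 4 of 4 pairs, the groups overlapped, and the difference did not pass (−0.19 log2, SE 0.10, edgeR adjusted p = 0.128). It passed without WT ipsilateral 48 h (−0.32 log2, edgeR adjusted p = 0.0273), with stricter cell filters (−0.31 log2, edgeR adjusted p = 0.0241) and at 24 h alone (−0.30 log2, edgeR adjusted p = 0.0344). Fcgr4 stood at 79.2, 29.5, 84.3 and 79.8 CPM contralaterally and at 98.6, 84.9, 111 and 69.9 CPM ipsilaterally in that order. It was higher ipsilaterally in 3 of 4 pairs, with a difference of 0.57 log2 (SE 0.27, edgeR adjusted p = 0.136) that passed in DESeq2 (0.58 log2, adjusted p = 0.0131). The Prdx1-/- 48 h pair went the other way. Without WT contralateral 48 h the Fcgr4 difference was 0.30 log2 (edgeR adjusted p = 0.0773) and without WT ipsilateral 48 h it was 0.35 log2 (edgeR adjusted p = 0.289). It passed without Prdx1-/- contralateral 48 h (0.78 log2, edgeR adjusted p = 0.0376) and at 24 h alone (0.46 log2, edgeR adjusted p = 0.00492).

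Fcgr2b in microglia-like cells stood at 206, 149, 232 and 272 CPM contralaterally and at 236, 207, 215 and 219 CPM ipsilaterally in the same order, higher in both WT pairs and lower in both Prdx1-/- pairs, and its difference was 0.14 log2 (SE 0.13, edgeR adjusted p = 0.368). Fcer1g stood at 2053 to 2321 CPM in all 8 libraries and differed by 0.07 log2 (SE 0.09, edgeR adjusted p = 0.515). The ratio of activating receptors to Fcgr2b was 2.66 ± 0.15 log2 ipsilaterally and 3.07 ± 0.24 log2 contralaterally in microglia-like cells (SD, n = 4 each), lower in 4 of 4 pairs. That difference of −0.41 did not pass (two-sided exact permutation p = 0.0571, adjusted p = 0.171 over 3 classes, smallest possible p = 0.0286).

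**Figure D4:**
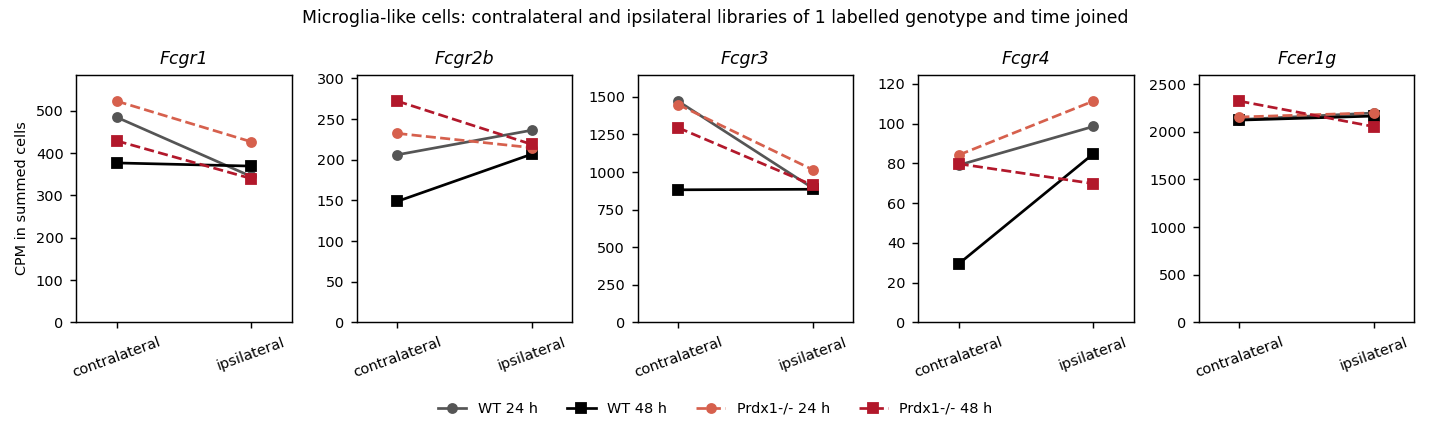
Level (CPM) of the 5 genes in contralateral and ipsilateral microglia-like cells, with a line joining the hemispheres of the same labelled genotype and time. Fcgr3 is lower ipsilaterally in 3 of 4 pairs, and the WT 48 h pair starts low on the contralateral side for Fcgr3 and Fcgr4.

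The WT contralateral 48 h library was low in 3 receptors at once: its microglia-like cells had the lowest Fcgr3, Fcgr2b and Fcgr4 of the 8 libraries. Inside some single clusters this library was also low, with an example each given here for Fcgr3 and Fcgr4. The other clusters, and Fcgr2b within clusters, are not given here. In the cluster led by Bhlhe41 its Fcgr3 was 807 CPM, against 1127 to 1584 CPM in the 6 other libraries, and in the cluster led by Ccl12, Tnf and Il1a its Fcgr4 was 28.6 CPM, against 64.4 to 139.5 CPM in the 7 other libraries. Its Fcer1g level of 2122 CPM was within the range of the rest.

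In monocyte/macrophage-like and neutrophil-like cells no member passed between hemispheres in edgeR's quasi-likelihood test, 0 of 5 in each, where 6.69% and 2.86% of all genes passed. At an unadjusted p under 0.05 the count was 0 in monocyte/macrophage-like cells, where DESeq2 also called 0. Fcgr4 was lower ipsilaterally in 4 of 4 pairs of monocyte/macrophage-like sums (−0.18 log2, SE 0.08, edgeR adjusted p = 0.213). In neutrophil-like cells 2 members, Fcgr1 and Fcgr3, had an unadjusted p under 0.05, as did 1645 of 8537 genes. DESeq2 called 1 member, Fcgr1, and 448 of all genes, against 244 of all genes in edgeR's test. Neutrophil-like Fcgr3 differed by 0.44 log2 (SE 0.18, higher ipsilaterally in 3 of 4 pairs, edgeR adjusted p = 0.217), Fcgr2b by 0.49 log2 (SE 0.25, 4 of 4 pairs, adjusted p = 0.299), Fcer1g by 0.45 log2 (SE 0.23, 3 of 4 pairs, adjusted p = 0.309) and Fcgr4 by 0.37 log2 (SE 0.22, 3 of 4 pairs, adjusted p = 0.363).

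Neutrophil-like Fcgr1 stood at 17.1, 23.2, 40.2 and 9.55 CPM contralaterally and at 4.59, 14.9, 4.90 and 5.78 CPM ipsilaterally, in the order WT 24 h, WT 48 h, Prdx1-/- 24 h and Prdx1-/- 48 h. It was lower ipsilaterally in 4 of 4 pairs (−1.30 log2, SE 0.42, edgeR adjusted p = 0.132), at the level of the T-like background and from 11 to 23 UMIs in each contralateral library. The difference passed in DESeq2 (−1.42 log2, adjusted p = 0.0471), without the filter on low counts (−1.20 log2, edgeR adjusted p = 0.00544) and with the hemisphere pairs as a block (−1.35 log2, edgeR adjusted p = 0.0416). It was −0.40 log2 with cells classed by their own marker scores (edgeR adjusted p = 0.721), −0.74 log2 at 48 h alone (edgeR adjusted p = 0.641) and −2.19 log2 at 24 h alone, where it passed (edgeR adjusted p = 0.0162). All 11 microglia markers were detected in contralateral neutrophil-like cells, and they summed to 489 to 1042 CPM contralaterally and 213 to 401 CPM ipsilaterally. Their part in the result was not tested.

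Between 24 and 48 h, Fcgr3 fell in monocyte/macrophage-like cells. It stood at 641, 664, 837 and 818 CPM at 24 h and at 487, 540.5, 531 and 576 CPM at 48 h, in the order WT contralateral, WT ipsilateral, Prdx1-/- contralateral and Prdx1-/- ipsilateral. The times did not overlap. The difference was −0.51 log2 (SE 0.10, lower in 4 of 4 pairs, edgeR adjusted p = 0.0186), and Fcgr3 was 1 member of 5 to pass, where 6.04% of all genes passed. At an unadjusted p under 0.05 there were 4, beside 2370 of 10668 genes. Both Fcgr4 (−0.31 log2, SE 0.08, edgeR adjusted p = 0.0573) and Fcgr2b (−0.33 log2, SE 0.10, edgeR adjusted p = 0.0907) were lower at 48 h in 4 of 4 pairs without passing, and DESeq2 called both together with Fcgr3 (adjusted p = 0.0153 for Fcgr4, 0.0460 for Fcgr2b and 6.2e-05 for Fcgr3). The count over all genes in DESeq2 is not given here.

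Fcgr1 moved the other way in these cells. It stood at 261, 302, 327 and 406 CPM at 24 h and at 513, 505, 511 and 370.0 CPM at 48 h in the same order, higher at 48 h in 3 of 4 pairs, and the difference of 0.51 log2 did not pass (SE 0.19, edgeR adjusted p = 0.149). It passed without the Prdx1-/- ipsilateral 24 h library (0.69 log2, edgeR adjusted p = 0.0429) or the Prdx1-/- ipsilateral 48 h library (0.73 log2, edgeR adjusted p = 0.0174). Without WT contralateral 24 h it was 0.35 log2 (edgeR adjusted p = 0.374), and among ipsilateral libraries alone 0.18 log2 (edgeR adjusted p = 0.755). The cluster led by Rsad2 and Ifit3, where Fcgr1 was highest, made up 0.755 to 2.94% of monocyte/macrophage-like cells at 24 h and 5.53 to 21.1% at 48 h. Without that cluster the Fcgr1 difference was 0.20 log2 (edgeR adjusted p = 0.516), while Fcgr4 fell by 0.51 log2 (edgeR adjusted p = 0.0109) and Fcgr3 fell by 0.50 log2 (edgeR adjusted p = 0.0179). The fits by cluster over time were chosen after seeing the data, and the part of the makeup in these results was not tested.

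The Fcgr3 call over time was lost, with a difference of similar size, without WT ipsilateral 24 h (−0.54 log2, edgeR adjusted p = 0.0535), Prdx1-/- contralateral 48 h (−0.47 log2, 0.0860) or Prdx1-/- ipsilateral 48 h (−0.47 log2, 0.0591). It was also lost among ipsilateral libraries alone (−0.53 log2, edgeR adjusted p = 0.119), within the cluster led by Vcan and Chil3 (−0.17 log2, edgeR adjusted p = 0.506) and with cells classed by their own marker scores (−0.43 log2, edgeR adjusted p = 0.349). In monocyte/macrophage-like cells the 12 neutrophil markers summed to 1271 to 8678 CPM at 24 h and 888 to 4109 CPM at 48 h, and the 11 microglia markers to 228 to 1532 CPM and 289 to 947 CPM. Their part in the result was not tested.

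**Figure D5:**
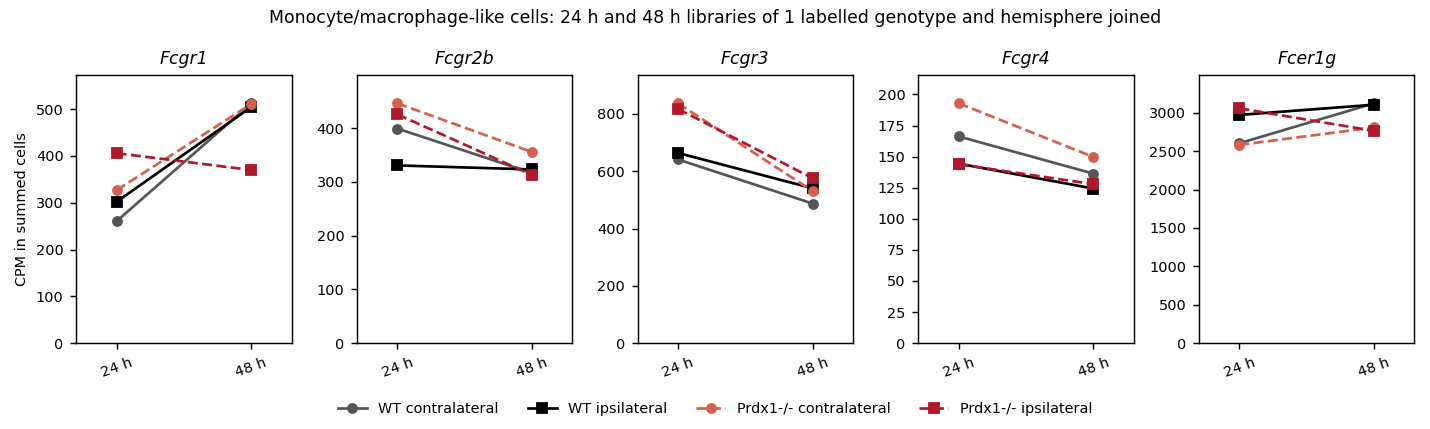
Level (CPM) of the 5 genes in monocyte/macrophage-like cells at 24 and 48 h, with a line joining libraries of the same labelled genotype and hemisphere. Fcgr3, Fcgr4 and Fcgr2b are lower at 48 h in all 4 pairs and Fcgr1 is higher in 3 of 4.

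In microglia-like cells, 0 of 5 members passed between 48 and 24 h in edgeR's test, where 12.5% of all genes passed, and 2 (Fcgr3 and Fcgr1) had an unadjusted p under 0.05, as did 3808 of 13303 genes. DESeq2 called 2, Fcgr3 and Fcgr4, and its count over all genes is not given here. Fcgr3 (−0.31 log2, SE 0.11, edgeR adjusted p = 0.0948) and Fcgr4 (−0.59 log2, SE 0.27, edgeR adjusted p = 0.218) were lower at 48 h in 4 of 4 pairs, and Fcgr1 (−0.27 log2, SE 0.10, edgeR adjusted p = 0.102) in 3 of 4. Without WT contralateral 48 h the difference was −0.35 log2 for Fcgr4 (edgeR adjusted p = 0.106) and −0.20 log2 for Fcgr3 (edgeR adjusted p = 0.182), and among ipsilateral libraries alone Fcgr3 differed by −0.14 log2 (edgeR adjusted p = 0.546). In neutrophil-like cells 0 of 5 passed, where 0.457% of all genes passed, with 1 member, Fcgr3, and 1147 of 8537 genes at an unadjusted p under 0.05 (Fcgr3 −0.40 log2, SE 0.18, edgeR adjusted p = 0.363) and 0 members called by DESeq2. Of all genes DESeq2 called 136 there.

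Between labelled genotypes no member passed in any of the 3 classes, where 0.0451% of all genes passed in microglia-like, 0.00937% in monocyte/macrophage-like and 0.0% in neutrophil-like cells. The count was also 0 at an unadjusted p under 0.05 and 0 in DESeq2 in each class, while 1495 of 13303, 378 of 10668 and 162 of 8537 genes had such an unadjusted p. Of all genes DESeq2 called 144 in microglia-like and 18 in monocyte/macrophage-like cells. The microglia-like differences, Prdx1-/- over WT, were 0.26 log2 for Fcgr2b (SE 0.13, edgeR adjusted p = 0.482), 0.35 log2 for Fcgr4 (SE 0.27, adjusted p = 0.681), 0.19 log2 for Fcgr3 (SE 0.11, adjusted p = 0.548), 0.13 log2 for Fcgr1 (SE 0.10, adjusted p = 0.657) and 0.03 log2 for Fcer1g (SE 0.09, adjusted p = 0.928). Fcgr3 was higher in the library labelled Prdx1-/- in 4 of 4 pairs of monocyte/macrophage-like sums, by 0.20 log2 (SE 0.10, edgeR adjusted p = 0.9999). With the 48 h libraries alone, where Prdx1 followed the labels, 0 of 5 members passed in each class, while 467 of all genes passed in microglia-like, 472 in monocyte/macrophage-like and 1 in neutrophil-like cells. In that fit 2 members of monocyte/macrophage-like cells had an unadjusted p under 0.05, Fcgr1 at −0.30 log2 (edgeR adjusted p = 0.107) and Fcer1g at −0.23 log2 (edgeR adjusted p = 0.152). The same held for 2 members of neutrophil-like cells, Fcgr2b at 0.99 log2 and Fcgr1 at −1.24 log2 (edgeR adjusted p = 0.603 for both), and for 0 of microglia-like cells. The count over all genes at an unadjusted p under 0.05 is not given for that fit.

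The genes around the receptors in the pathway were read from lists of related genes in the same edgeR fits, and those said to rise or fall passed at the same threshold. Of 8 other receptors that pair with the common gamma chain, 5 were tested in microglia-like cells and 4 rose ipsilaterally: Clec4d by 4.36, Clec4e (Mincle) by 3.36, Clec4n (Dectin-2) by 2.82 and Cd300ld by 1.89 on the log2 scale. The median of the 5 was 2.82, against 0.01 over all genes, of which 46.6% passed in either direction. These 4 genes stood at only 0.338 to 28.0 CPM in the microglia-like sums, in which the summed monocyte and neutrophil markers given above were also higher ipsilaterally, and the part of such cells was not tested. The Clec4 receptors are C-type lectins that recognise microbial or damage ligands. In monocyte/macrophage-like cells 2 of 5 rose ipsilaterally, Clec4d by 1.48 and Clec4e by 0.92 log2, and in neutrophil-like cells 1 of 5 rose, Clec4d by 1.39 log2, where 6.69% and 2.86% of all genes passed.

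Of 13 other Fc receptors, 4 were tested in microglia-like cells and 3 fell ipsilaterally: Fcrl1 fell by 0.70, the cytosolic antibody receptor Trim21 fell by 0.60 and the neonatal Fc receptor Fcgrt fell by 0.30 on the log2 scale. Fcrl1 is known from B cells, and the 7 B cell markers summed to 165 to 260 CPM in contralateral and 85.0 to 103 CPM in ipsilateral microglia-like sums, none of them at 0 in all libraries of a side. Their part in the result was not tested. Fcrls, a receptor-like gene of homeostatic microglia, was at −0.02 log2 and did not pass, where 46.6% of all genes passed. In monocyte/macrophage-like sums 1 of 6 tested fell, Fcrls by 1.78 log2, where 6.69% of all genes passed. There the microglia markers summed to 605 to 1532 CPM contralaterally and 228 to 431 CPM ipsilaterally, and their part in the result was not tested.

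Downstream of the activating receptors, 3 of 16 genes of activation motif signalling rose and 4 fell in ipsilateral microglia-like cells, among them Vav3 at 2.98, Pik3cd at −0.39, Gab2 at −0.22 and Lat2 at 0.21 log2 (median of the list −0.06). Of 16 inhibitory genes, 4 rose and 9 fell (median −0.26 log2): the adaptor Pag1 fell by 1.07, Cd300a fell by 0.81, Siglece fell by 0.76 and Inpp5d, which encodes the SHIP-1 that Fcgr2b recruits, fell by 0.69. Of 14 genes of the phagocytic actin machinery 3 rose and 4 fell, with Elmo1 at −0.75 and Arpc1b at 0.42 log2. Of 8 tested genes of interferon gamma signalling and myeloid factors 1 rose, Jak2 at 0.23, and 2 fell, Ifngr1 at −0.91 and Irf8 at −0.30 log2. All shares of these lists stand against the 46.6% of genes that passed in this comparison.

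Over time in monocyte/macrophage-like cells, 0 of 16 activation motif genes passed, while 2 of 16 inhibitory genes rose and 4 fell, with Cd300lf at 0.72, Siglece at −1.24, Dok2 at −0.92 and Ptpn6, which encodes the phosphatase SHP-1, at −0.49 log2. Of 14 actin genes 1 rose, Dock2 at 0.35, and 3 fell, Rac2 at −0.72, Pak1 at −0.71 and Coro1a at −0.59 log2, where 6.04% of all genes passed. In ipsilateral neutrophil-like cells 0 of 16 activation motif genes and 0 of 14 actin genes passed, and 2 of 15 tested inhibitory genes rose, where 2.86% of all genes passed. Between labelled genotypes 0 genes of any list passed in edgeR's test in any class.

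The genes whose levels were most alike were read from 54 sums of 9 classes over 5864 genes, as Pearson correlations of log2(CPM + 1). Sums of 1 library share its depth and sums of 1 class its cell type, so the values are a description. Fcgr1 was most like Ctss (0.96) and Lrp1 (0.95), Fcgr2b most like Irf5 (0.90), Psap (0.90) and Sdc3 (0.89), and Fcgr3 most like Tcn2 (0.92), Sirpa (0.91) and Itgam (0.90). Fcgr4 was most like Rab20 (0.92), Cd14 (0.92) and C5ar1 (0.92), and Fcer1g most like Tyrobp (0.96), which encodes another activation motif adaptor, Efhd2 (0.92) and Tnfrsf1a (0.90).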

How the data were processed

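The authors deposited a table of whole UMI counts per gene and cell for each of the 8 libraries, from 10x Genomics 3′ chemistry per the labels' protocols. After perfusion, cells were freed enzymatically, separated from myelin by a Percoll gradient and sorted alive, per the labels' protocols. The submitters' processing notes name Cell Ranger, Seurat and the mm10 build, and the filters behind the tables are not given in the sources used here. The members and gene lists were chosen with earlier results of these data known.

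A minimum of 200 genes and a maximum of 10% mitochondrial counts left out 337 cells, and the cells with the highest simulated doublet scores (0.8% per 1000 cells of a library, 1583 in all) were removed. Cells of all libraries were scaled to 10000 counts and clustered with scanpy 1.11.5 (2000 variable genes, 30 components, 15 neighbours, Leiden resolution 1.0) without Fc receptor genes and Prdx1. A cluster was named from markers where its score was at least 1.2 times the next and at least 3 markers were found in 10% of its cells. Clusters with 3 or more hemoglobin genes among 10 leading genes stayed unnamed, a rule added after seeing the data.

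Counts were summed per class and library with at least 20 cells. Genes were tested with edgeR 4.0.16 (TMM, filterByExpr with a minimum count of 10, robust quasi-likelihood F test, additive in hemisphere, labelled genotype and time), with Benjamini-Hochberg adjustment over all genes and a threshold of 0.05. DESeq2 1.42.0 was an alternative. Border macrophage-like cells, with 2 and 14 cells in the ipsilateral 48 h libraries, were not fitted. Classes were compared on log2(CPM + 1) with exact two-sided sign-flip permutation. On simulated counts with 100 genes changed by a log2 fold of 1 the fit recovered 85 in microglia-like (13303 genes), 89 in monocyte/macrophage-like (10668 genes) and 31 in neutrophil-like cells (8537 genes). The simulations also gave 8, 10 and 2 false calls in these classes. No smaller change was simulated. Beside the members, up to 4 genes with the smallest p are named from each list, and the 3 most alike genes for each member. Some genes that this rule names are not reported here. Motifs were searched in RefSeq promoter windows of GRCm38.p6, where all 5 members had an entry. The labels carry no replicate numbers, so a block was tried only over the hemispheres that share labelled genotype and time. Counting error alone is covered by single values.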

Additional observations from a re-analysis of the deposited data

Results flagged for a closer look

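In groups of 4 libraries, a value was marked where its gap to the nearest other library was a larger part of the whole range than Dixon's 95% critical value, which chance gives in about 1 of 20 groups. In contralateral microglia-like cells the WT 48 h library stood apart with Fcgr4 at 29.5 CPM, and the Prdx1-/- 48 h library with Fcer1g at 2321 CPM. In ipsilateral monocyte/macrophage-like cells the Prdx1-/- 24 h library stood apart with Fcgr2b at 426 CPM. In neutrophil-like cells Fcgr1 stood apart at 14.9 CPM in WT ipsilateral 48 h, Fcgr3 at 523 CPM in Prdx1-/- contralateral 24 h, and Fcgr4 at 110.4 CPM in Prdx1-/- ipsilateral 48 h.

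Other values were marked because every pair of one group moved one way and every pair of the other the opposite way. With so few pairs in a group, chance alone often gives such a pattern. Both rules were applied to every member in each fitted class. Fcgr2b in microglia-like cells was higher ipsilaterally in both WT pairs and lower in both pairs labelled Prdx1-/-, and the hemisphere by genotype term was −0.52 log2 (edgeR adjusted p = 1.0). In monocyte/macrophage-like cells Fcgr1 and Fcer1g were higher ipsilaterally in both 24 h pairs and lower in both 48 h pairs, with hemisphere by time terms of −0.64 log2 (edgeR adjusted p = 0.418) and −0.39 log2 (edgeR adjusted p = 0.395). No interaction term of a member passed the threshold, and the share of all genes that passed for hemisphere by genotype is not given here.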

How the results depend on the processing

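Among refits of single members, 678 kept their direction and side of the threshold, 34 changed sign, 17 came to pass and 16 ceased to, and the cause of each change was not tested. Microglia-like hemisphere calls, 1 member as reported, became 2 with DESeq2, 2 with stricter cell filters, 3 at 24 h alone and 0 at 48 h alone, in the Ccl12 cluster alone, in the Fosb cluster alone or without the Mmp12 cluster, and 0 to 2 with 1 library left out. Microglia-like time calls went from 0 to 2 with DESeq2. Monocyte/macrophage-like time calls, 1 as reported, became 3 with DESeq2, 2 without the Rsad2 cluster, 0 by cell score, 0 in ipsilateral libraries alone or the Vcan cluster alone, and 0 to 2 with 1 library left out. Neutrophil-like hemisphere calls went from 0 to 1 with DESeq2, without the low-count filter, at 24 h alone and with the hemisphere pairs as a block. That block changed no other call of a member, and microglia-like Fcgr3 was −0.34 log2 with it (edgeR adjusted p = 0.0320). Over all genes, neutrophil-like hemisphere calls were 448 with DESeq2, 947 without the low-count filter and 454 at 24 h alone, against 244 as reported. For the other refits above, counts over all genes are given below only in part. The class comparisons passing went from 40 to 24 by cell score and stayed at 40 with a pseudocount of 10 CPM. When cells were classed by score, too few libraries held enough border macrophage-like cells for any pair with that class to pass. By cell score Fcgr1 changed sign between monocyte/macrophage-like and border macrophage-like cells (−0.0948) and between neutrophil-like and T-like cells (0.477), and Fcer1g between neutrophil-like and border macrophage-like cells (0.176). The difference in the log2 ratio of activating to inhibitory receptors ran from −0.525 to −0.334 over 11 alternatives in microglia-like cells (exact permutation p 0.0571 to 0.114). In neutrophil-like cells it ran from −0.437 to 0.174, with the sign changed without Prdx1-/- ipsilateral 48 h.

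The log2 values that changed sign came from members that had not passed. With 1 library left out, genotype differences ran from −0.0149 to 0.0811 for Fcer1g in microglia-like cells, −0.136 to 0.271 for Fcgr1 in monocyte/macrophage-like cells and −0.305 to 0.0130 for Fcgr4 in neutrophil-like cells. Hemisphere differences ran from −0.0178 to 0.265 for Fcgr2b in microglia-like cells, and in monocyte/macrophage-like cells from −0.114 to 0.292 for Fcgr1 and −0.131 to 0.0119 for Fcgr2b. Time differences ran from −0.0485 to 0.122 for Fcer1g in monocyte/macrophage-like cells, and in neutrophil-like cells from −0.434 to 0.296 for Fcgr1 and −0.0635 to 0.401 for Fcgr2b. At 48 h alone the genotype difference was −0.0271 for Fcer1g and −0.0188 for Fcgr1 in microglia-like cells and −0.297 for Fcgr1 and −0.0088 for Fcgr2b in monocyte/macrophage-like cells. The hemisphere difference at 48 h alone was −0.0400 for microglia-like Fcer1g, −0.251 for monocyte/macrophage-like Fcgr1, −0.0225 for monocyte/macrophage-like Fcer1g and −0.0593 for neutrophil-like Fcgr4. In ipsilateral libraries alone the genotype difference was −0.0035 for Fcgr4 and −0.0073 for Fcer1g in microglia-like cells and −0.0227 for Fcgr1 in monocyte/macrophage-like cells, and the time difference was −0.165 for monocyte/macrophage-like Fcer1g and 0.480 for neutrophil-like Fcgr1. The hemisphere difference of Fcgr1 was 0.101 in the Ccl12 cluster and that of Fcer1g −0.0385 in the Fosb cluster, and the time difference of Fcer1g was −0.0068 without the Rsad2 cluster.

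Counts over all genes moved too: microglia-like genotype calls went from 6 to 144 with DESeq2 and 467 at 48 h alone, microglia-like hemisphere calls from 6204 to 341 in the Ccl12 cluster alone, and microglia-like time calls from 1660 to 781 without Prdx1-/- ipsilateral 24 h. Monocyte/macrophage-like calls went from 1 to 472 between genotypes at 48 h alone, from 714 to 10 between hemispheres and from 644 to 6 between times by cell score. Neutrophil-like hemisphere calls went from 244 to 1 by cell score and 1096 without Prdx1-/- ipsilateral 48 h, and time calls from 39 to 305 without the low-count filter. Depth limits the contralateral neutrophil-like sums (44 to 297 cells), and Fcgr1 there is near background. The cluster alternatives, chosen after seeing the data, and the fits at 1 time or 1 hemisphere test fewer cells or libraries.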
